A study of Mus musculus with 8 samples.

Results

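Prostaglandins are made and sensed through a small set of proteins, and 10 of their genes were followed here in adipose precursors (APs) of mice after a short high-fat diet. They were 2 cyclooxygenases (Ptgs1 and Ptgs2), 2 terminal synthases (Ptges and Ptgis), 5 receptors (Ptger1, Ptger2, Ptger3, Ptger4 and Ptgfr) and the degrading enzyme Hpgd. A gene was represented by the probe set whose annotation gives its symbol and no other, and each of 9 genes had exactly 1 such probe set. These are 9 of the 19938 genes measured in the series. No probe set carried the symbol Ptgs1 alone, so this gene is not analysed here. The rule used no measured value, but the genes were named with earlier results of these data known.

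RNA was read on 8 Affymetrix Mouse Gene 1.0 ST arrays, which have 1 colour, with the RNA of 3 mice pooled on each. All animals were wild-type male C57BL/6J mice and were 7 to 8 weeks old. The 4 groups of 2 arrays were viAPs after 3 days of high-fat diet (HFD viAPs), viAPs on standard diet (SD viAPs), scAPs after 3 days of high-fat diet (HFD scAPs) and scAPs on standard diet (SD scAPs). Here viAPs are precursors of the perigonadal visceral depot and scAPs are precursors of the inguinal subcutaneous depot. In both, cells carrying CD45 or CD31 were first removed with beads, cells carrying SCA-1 were then retained, and the eluted cells were lysed without culture. A level is the log2 of the deposited intensity, so a difference of 1 is a 2-fold difference. With 2 pools in a group, a test measures the spread between pools, and precision is limited by how few arrays there are.

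Prostanoids are short-lived lipid signals. Phospholipases free arachidonic acid from membranes, a cyclooxygenase (Ptgs1 or the inducible Ptgs2) converts it to prostaglandin H2, and terminal synthases then make prostaglandin E2 (Ptges), prostacyclin (Ptgis) and the other prostanoids. Each prostanoid acts on receptors coupled to G proteins, and Hpgd begins the breakdown of prostaglandin E2 and related prostanoids inside cells. In adipose tissue, prostacyclin is known to favour the conversion of precursors to adipocytes, while prostaglandin F2-alpha, the ligand of Ptgfr, is known to oppose it, and prostaglandin E2 is known to restrain lipolysis.

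The arrays had median log2 levels of 5.58 to 5.75. The precursor marker Pdgfra was between 11.01 and 11.56 on the 8 arrays, and the leukocyte markers were low, with 14 of 15 measured genes at or below a level of 7 on every array. The array labelled SD viAP replicate 4 stood apart, because several depot genes on it read as in the other depot. Tbx15, a transcription factor of subcutaneous precursors, read 9.77 on it, against 4.70 on SD viAP replicate 3 and 9.34 to 9.67 on the scAP arrays. Tcf21, a transcription factor of visceral precursors, read 5.32 on it, against 9.61 on SD viAP replicate 3. On SD viAP replicate 4, Hoxc8 (9.29) and Gata6 (8.34) lay between the scAP arrays and SD viAP replicate 3 (9.73 and 8.85). Over the probe sets, this array correlated more closely with SD scAP replicate 2 (r = 0.983) than with SD viAP replicate 3 (r = 0.977). Where leaving it out ended a call, or moved the diet change of a member in viAPs or a list median given here by more than 1.5 times, the result without it is also given. Whether a lower level reflects fewer cells of a type or less RNA per cell cannot be told apart in these pools.

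In viAPs, the prostaglandin E2 receptor Ptger4 and the prostacyclin synthase Ptgis rose after the HFD, by 4.47-fold and 2.31-fold. The other 7 measured members did not pass the test, and 0 members fell. Of the 3076 probe sets that entered the main test, 64.8% were called in this comparison, 60.6% as higher and 4.19% as lower, so a call in viAPs was common. A probe set entered that test when its level exceeded 7 on 3 or more arrays and its variation across the arrays lay in the upper tercile. Only Ptgis, Ptger4 and Hpgd did so, and 2 of these 3 members were called. The other 6 members were adjusted over all 21789 probe sets with 1 symbol, of which 4.84% were called (4.3% as higher), and 0 of the 6 were. An unadjusted p under 0.05 in limma was found for 3 of the 9, beside 5240 of the 19938 genes measured. Both HFD viAP arrays lay above both SD viAP arrays for 4 members and below them for 1, beside 28.9% and 31.2% of all probe sets. The median change of the 9 members was 0.084 on the log2 scale (0.043 without SD viAP replicate 4), against -0.060 over all genes measured. Among the probe sets of the main test the median change was 0.63, so that a member in it has to be read against that shift.

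**Figure D1:**
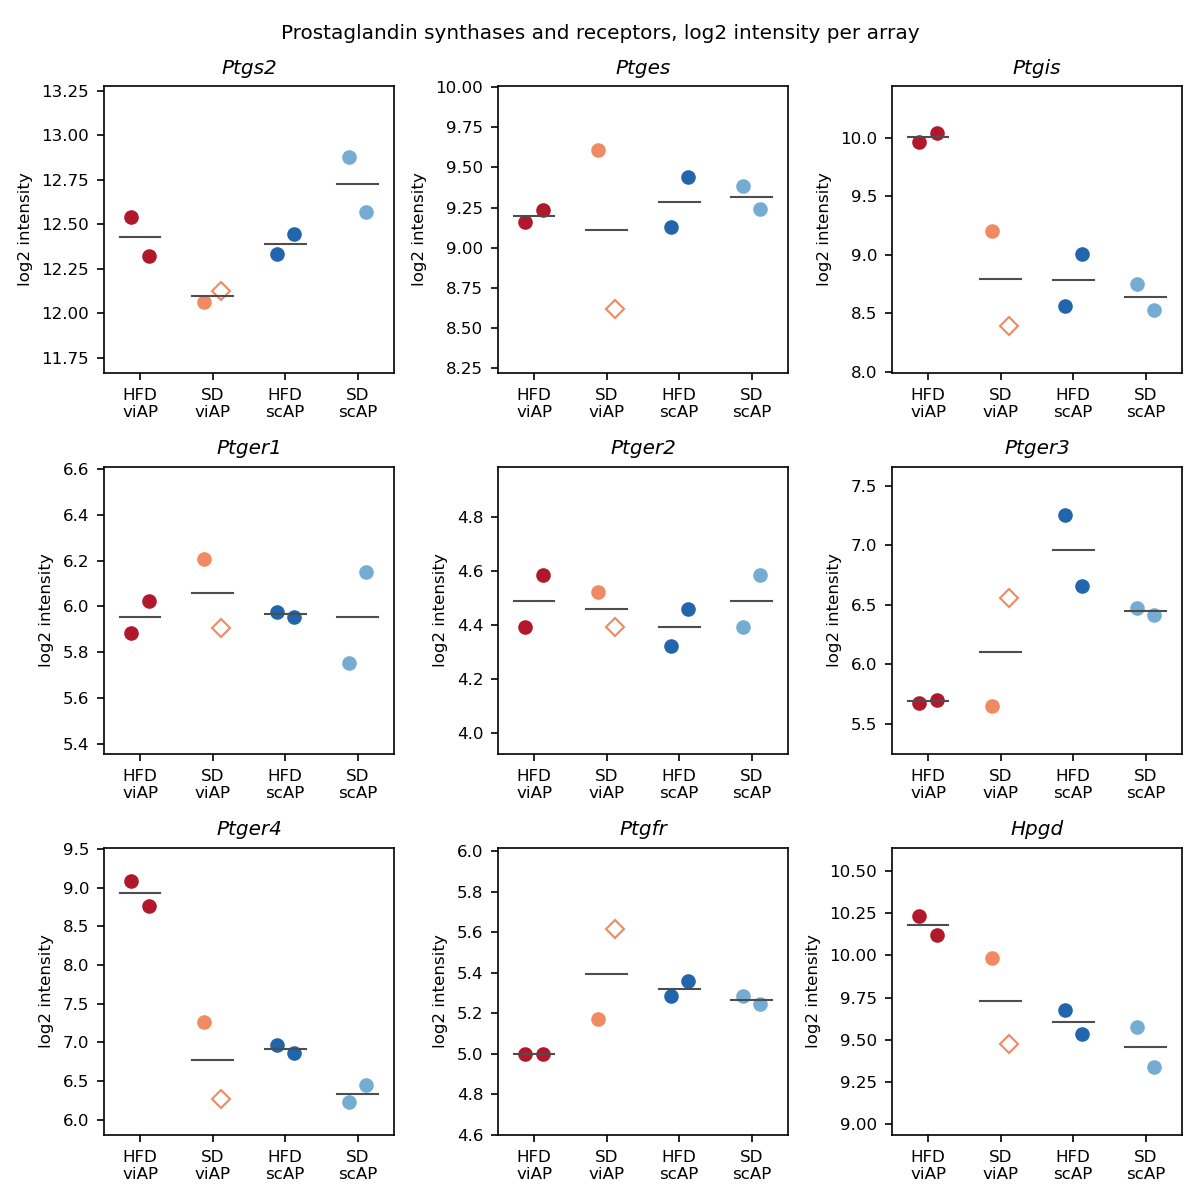
Log2 intensity (vertical axis, with its own scale for each gene) of the 9 measured members on the 8 arrays. Each point is 1 array, lines are group means of 2 arrays, and the open diamond is SD viAP replicate 4. Ptger4 and Ptgis stand highest on both HFD viAP arrays, while Ptgs2 is lowest on both SD viAP arrays and highest on both SD scAP arrays.

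Ptgs2, also known as COX-2, is the cyclooxygenase that many stimuli induce. Its level was 12.54 and 12.32 in HFD viAPs, against 12.06 and 12.13 in SD viAPs. In scAPs it was 12.34 and 12.44 after the HFD, against 12.88 and 12.57 on SD. Both HFD viAP arrays lay above both SD viAP arrays, whereas both HFD scAP arrays lay below both SD scAP arrays. Taken singly, these separations were found for 28.9% and 18.8% of all probe sets. The changes were small, 0.34 in viAPs (standard error 0.15) and -0.33 in scAPs (standard error 0.15), and neither was called (limma adjusted p = 0.211 and 0.364). The difference between these changes was 0.67 with a 95% interval of 0.16 to 1.18, and it was not called either once adjusted over all probe sets (limma adjusted p = 0.804). Without SD viAP replicate 4 the change in viAPs was 0.37. The promoter of Ptgs2 is shown because this gene was the only member whose arrays separated in opposite directions in the depots. It is the RefSeq sequence of GRCm38.p6 at chr1:150099781-150100080, plus strand, 5′ to 3′, from 250 bases before the annotated start to 50 bases after it, with motif matches in capitals.
Ptgs2: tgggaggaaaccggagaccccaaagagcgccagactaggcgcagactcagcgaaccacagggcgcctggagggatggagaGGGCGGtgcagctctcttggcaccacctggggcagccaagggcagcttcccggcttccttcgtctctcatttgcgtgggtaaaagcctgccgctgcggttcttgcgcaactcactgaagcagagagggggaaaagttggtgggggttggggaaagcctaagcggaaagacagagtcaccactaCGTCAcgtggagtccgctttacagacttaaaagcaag
Its GC content was 59.3%, against a median of 52.7% over 32851 promoters of the same length. It held 1 GC box (GGGCGG), first base at -170 from the start, and 1 cAMP response element core (TGACG), which lies on the other strand, reads CGTCA here and begins at +14. Searched on both strands, a GC box was found in 35.7% of all promoters and this cAMP core in 20.8%. The letters of a TATA box (TATAAA, in 13.6% of promoters), a CCAAT box (CCAAT, in 37.4%), an AP-1 site (TGANTCA, in 7.81%) and an NF-kB site (GGGA and CC around any 4 bases, in 20.7%) were not in this window. The GC box and the cAMP core did not overlap, and a match is a description of letters, not evidence of binding.

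The terminal synthases differed from each other. Ptges, the inducible prostaglandin E2 synthase that works with Ptgs2, read 9.16 and 9.24 in HFD viAPs, against 9.61 and 8.62 in SD viAPs, so the SD arrays lay on either side of the HFD arrays. In scAPs it read 9.13 and 9.44 after the HFD, against 9.39 and 9.24 on SD. Its changes were 0.084 in viAPs (95% interval -0.65 to 0.82) and -0.027 in scAPs (95% interval -0.76 to 0.71). The SD viAP pair had the widest spread of the groups, and without SD viAP replicate 4 the viAP change was -0.41 (limma adjusted p = 0.284).

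Ptgis makes prostacyclin from prostaglandin H2. It read 9.97 and 10.04 in HFD viAPs, against 9.20 and 8.39 in SD viAPs. In scAPs it read 8.56 and 9.01 after the HFD, against 8.75 and 8.52 on SD. The HFD viAP arrays were the 2 highest of the 8, and SD viAP replicate 4 was the lowest. Ptgis averaged 10.004 ± 0.054 in HFD viAPs and 8.80 ± 0.58 in SD viAPs (SD, n = 2 each), and it rose by 1.21 on the log2 scale (standard error 0.28, limma adjusted p = 0.0123). It ranked 181 from the top among the 3076 changes. Without SD viAP replicate 4 the change was 0.80 and still called (limma adjusted p = 0.042), where 44.1% of the probe sets tested were called. The call was lost without HFD viAP replicate 5 (adjusted p = 0.073) or replicate 6 (adjusted p = 0.0623), and when the adjustment ran over all probe sets with 1 symbol (adjusted p = 0.0616) or the model held only the viAP arrays (adjusted p = 0.0512).

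Ptger4, or EP4, is a receptor of prostaglandin E2 that couples to Gs and raises cAMP. Its level was 9.09 and 8.77 in HFD viAPs, against 7.27 and 6.27 in SD viAPs. In scAPs it was 6.97 and 6.86 after the HFD, against 6.23 and 6.44 on SD. Both HFD viAP arrays stood well above the other 6, and in scAPs both HFD arrays lay above both SD arrays. The group means were 8.93 ± 0.23 in HFD viAPs and 6.77 ± 0.71 in SD viAPs (SD, n = 2 each). Ptger4 rose by 2.16 (standard error 0.31, 95% interval 1.41 to 2.91, limma adjusted p = 0.00448), and this change ranked 10 among the 3076. The gene passed the level filter with exactly 3 arrays above 7, both HFD viAP arrays and SD viAP replicate 3. It therefore entered the main test through the group where it was high. Over all probe sets with 1 symbol, with no filter, Ptger4 was still called (limma adjusted p = 0.0263). Without SD viAP replicate 4 the change was 1.66 (limma adjusted p = 0.0147), and without SD viAP replicate 3 it was 2.66, where 62.8% of the probe sets were called. Without HFD viAP replicate 5 it was 2.00 and just missed the threshold (limma adjusted p = 0.0535).

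The promoter of Ptger4 is shown because this gene had the largest change of the members. It is the RefSeq sequence of GRCm38.p6 at chr15:5244138-5244437, minus strand, written 5′ to 3′ on the strand of the gene, with motif matches in capitals.
Ptger4: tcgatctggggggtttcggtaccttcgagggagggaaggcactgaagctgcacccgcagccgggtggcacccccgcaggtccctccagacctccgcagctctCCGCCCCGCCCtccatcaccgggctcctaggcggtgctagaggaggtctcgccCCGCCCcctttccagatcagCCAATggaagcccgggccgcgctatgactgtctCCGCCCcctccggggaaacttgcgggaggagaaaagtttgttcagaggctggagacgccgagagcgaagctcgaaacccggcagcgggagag
Its GC content was 67.0%. The capitals mark 4 GC boxes, all on the other strand so that they read CCGCCC here, and 1 CCAAT box. The GC boxes begin at -148, -143, -95 and -42 from the start, the first and second of them overlapping by 1 base, and the CCAAT box begins at -75. The Ptgs2 promoter held 1 GC box and no CCAAT box, and the cAMP core found there was not in this window. TATA, AP-1 and NF-kB letters were not in it either. Of the 10 members, 8 had an entry in the RefSeq promoter table, and Ptgis and Ptger1 had none.

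The remaining receptors did not pass the test in viAPs. Ptger3, or EP3, couples to Gi and lowers cAMP. It read 5.67 and 5.70 in HFD viAPs, against 5.64 and 6.55 in SD viAPs, and 7.26 and 6.66 in HFD scAPs, against 6.48 and 6.41 in SD scAPs. The 3 viAP arrays with visceral depot genes were the lowest, and SD viAP replicate 4 lay between the SD scAP and the HFD scAP arrays. The change in viAPs was -0.41 (limma adjusted p = 0.435) and became 0.043 without SD viAP replicate 4. Ptgfr, the prostaglandin F2-alpha receptor, read 5.00 on both HFD viAP arrays, against 5.17 and 5.61 in SD viAPs, and 5.29 and 5.36 in HFD scAPs, against 5.29 and 5.25 in SD scAPs. Both HFD viAP arrays were the lowest of the 8, with a change of -0.39 (standard error 0.16, limma adjusted p = 0.185) that became -0.17 without SD viAP replicate 4. Its level stayed at or below 7 on every array.

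Ptger1, or EP1, acts through calcium, and Ptger2, or EP2, couples to Gs like Ptger4. Ptger1 lay between 5.75 and 6.21 and Ptger2 between 4.32 and 4.58 on the 8 arrays, all at or below 7, and their groups overlapped in all 4 comparisons of groups. Over the 5 contrasts the changes ran between -0.12 and 0.11 for Ptger1 and between -0.098 and 0.13 for Ptger2. Without SD viAP replicate 4 the diet change in viAPs was -0.26 for Ptger1, and that of Ptger2 turned negative. Thus Ptger4 was the only 1 of the 4 prostaglandin E2 receptors to be called in viAPs. Whether its change differed from that of Ptger2 was not tested.

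Hpgd oxidizes prostaglandin E2 and related prostanoids to inactive forms. It read 10.24 and 10.12 in HFD viAPs, against 9.98 and 9.48 in SD viAPs, and 9.68 and 9.53 in HFD scAPs, against 9.58 and 9.34 in SD scAPs. Both HFD viAP arrays lay above all others, but the gap to SD viAP replicate 3 was small. The change of 0.45 in viAPs (standard error 0.19) was not called (limma adjusted p = 0.0753). It was below the median change of 0.63 among the probe sets tested with it, and it ranked 2210 of 3076. Without SD viAP replicate 4 it was 0.19 (limma adjusted p = 0.338).

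**Figure D2:**
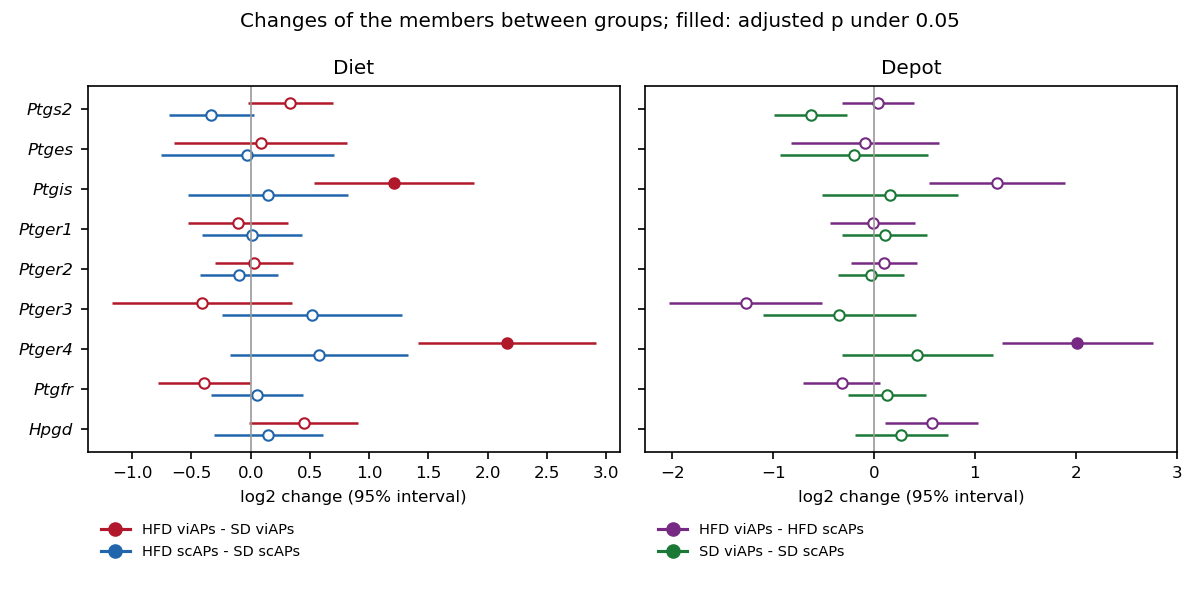
Log2 change (horizontal axes) of the 9 measured members, with 95% intervals from limma over all 8 arrays, for diet (left) and depot (right). Filled points passed an adjusted p of 0.05, which in the diet panel are Ptgis and Ptger4 in viAPs (1.21 and 2.16) and in the depot panel is Ptger4 after the HFD (2.02).

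In scAPs, 0 of the 9 members passed the limma test, and 0 had an unadjusted p under 0.05, beside 2971 of the 19938 genes measured. Of the probe sets in the main test 30.4% were called in this comparison (29.1% as higher and 1.3% as lower), and over all probe sets with 1 symbol 0.00459%. The largest change was that of Ptger4, 0.58 (95% interval -0.17 to 1.32, limma adjusted p = 0.19). Ptger3 followed with 0.52 (95% interval -0.24 to 1.27, limma adjusted p = 0.503). The change of Ptgis was 0.15 and that of Hpgd 0.15. Both HFD scAP arrays lay above both SD scAP arrays for 2 members, Ptger3 and Ptger4, and below them for Ptgs2, beside 21.7% and 18.8% of all probe sets. The median change of the 9 was 0.055, against -0.0044 over all genes. The Ptger4 change in scAPs was called when either SD viAP array was left out (limma adjusted p = 0.0423 in both cases, with 36.7% of the probe sets called). These arrays are not part of that comparison but enter the shared estimate of the spread. Endothelial markers also moved in scAPs. Their summed intensity was 3756 and 3926 in HFD scAPs, against 2158 and 2365 in SD scAPs, and 13 of 14 lay higher on both HFD arrays. Their part in the scAP values of Ptger3 and Ptger4 was not tested.

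The diet change in viAPs minus that in scAPs was not called for any of the 9 members, and 0.0% of the probe sets in the main test were called. An unadjusted p under 0.05 in limma was found for 3 of the 9, beside 1197 of the 19938 genes measured. For Ptger4 the difference was 1.59 (standard error 0.44, 95% interval 0.53 to 2.64, limma adjusted p = 0.298), and for Ptgis 1.06 (standard error 0.40, limma adjusted p = 0.369). That Ptger4 and Ptgis passed in viAPs and not in scAPs does not therefore show that the depots responded differently. The Ptger4 difference was called only without SD viAP replicate 3, where it was 2.09 (limma adjusted p = 0.0263) and 3.22% of the probe sets were called. For Ptger3 the difference was -0.93 (95% interval -2.00 to 0.14). All 3 were smaller in size without SD viAP replicate 4, at 1.09 for Ptger4, 0.65 for Ptgis and -0.47 for Ptger3, and none was called by limma (adjusted p = 0.341, 0.465 and 0.871).

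After the HFD, Ptger4 was higher in viAPs than in scAPs on both arrays, by 2.02 on the log2 scale or 4.04-fold (standard error 0.31). Its limma adjusted p was 0.045 in the main test, which it entered through viAP arrays alone, since no scAP array exceeded 7, and 0.0924 over all probe sets with 1 symbol, where it was not called. In the main test it was the only member called between depots after the HFD, where 2.57% of the probe sets in the main test were called (1.79% as higher and 0.78% as lower in viAPs). An unadjusted p under 0.05 in limma was found for 4 members, beside 1816 of the 19938 genes measured. Ptgis was higher in HFD viAPs than in HFD scAPs by 1.22 (standard error 0.28) and Hpgd by 0.57 (standard error 0.19), and neither passed (limma adjusted p = 0.0692 and 0.138). Ptger3 differed in the other direction, by -1.27 (95% interval -2.03 to -0.51, limma adjusted p = 0.207). For Ptger4, Ptgis and Hpgd both HFD viAP arrays lay above both HFD scAP arrays, and for Ptger3 and Ptgfr both lay below, beside 20.3% and 20.0% of all probe sets. The median over the 9 was 0.042, against -0.0065 over all genes.

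These calls depended on the 2 SD viAP arrays, which enter only through the shared spread. With either of them left out, Ptger4 (limma adjusted p = 0.00316), Ptgis (0.0168) and Hpgd (0.0496) were all called higher in HFD viAPs than in HFD scAPs, and 15.0% of the probe sets were called. When any other array was left out, 0 members were called, with an adjusted p of 0.099 to 0.327 for Ptger4. The call was also lost after a second quantile normalization (adjusted p = 0.0561) and with the level part of the filter alone (0.107). The endothelial markers differed in the same comparison, with a summed intensity of 1939 and 1787 in HFD viAPs, against 3756 and 3926 in HFD scAPs, and all 14 were lower on both HFD viAP arrays. The pericyte and smooth muscle markers summed to 1424 and 1088 in HFD viAPs, against 838 and 792 in HFD scAPs, and the mesothelial markers to 994 and 1172 in HFD viAPs, against 565 and 487 in HFD scAPs. Of all probe sets with 1 symbol, 20.3% lay higher and 20.0% lower on both HFD viAP arrays. Of the pericyte and smooth muscle genes 4 of 9 lay higher on both HFD viAP arrays and 2, Rgs5 and Notch3, lay lower on both. Of the mesothelial genes 4 of 12 lay higher and 0 lower, and the only 1 above 7 on both HFD viAP arrays was Wt1, at 8.94 and 9.09 in HFD viAPs, against 6.27 and 5.88 in HFD scAPs, which is also a gene of the depot identity list. Their part in the depot differences of the members was not tested.

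On SD, 0 of the 9 members passed the limma test between depots, and 0.0% of the probe sets in the main test were called. An unadjusted p under 0.05 in limma was found for 1 member, beside 1925 of the 19938 genes measured. Ptgs2 read 12.06 and 12.13 in SD viAPs, against 12.88 and 12.57 in SD scAPs, a change of -0.63 (95% interval -0.99 to -0.27, limma adjusted p = 0.466), and of -0.66 without SD viAP replicate 4. It was the 1 member whose groups did not overlap, beside 16.9% of all probe sets higher and 15.9% lower in SD viAPs. The Ptger4 change was 0.43 (limma adjusted p = 0.388). Here SD viAP replicate 4 decided the value. Without it Ptger4 was higher in SD viAPs by 0.93 and called (limma adjusted p = 0.042), where 12.4% of the probe sets were called, in the test that it entered only through viAP arrays. Without SD viAP replicate 3 the change was -0.069. The median over the 9 was 0.11 (0.26 without SD viAP replicate 4), against 0.016 over all genes.

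**Figure D3:**
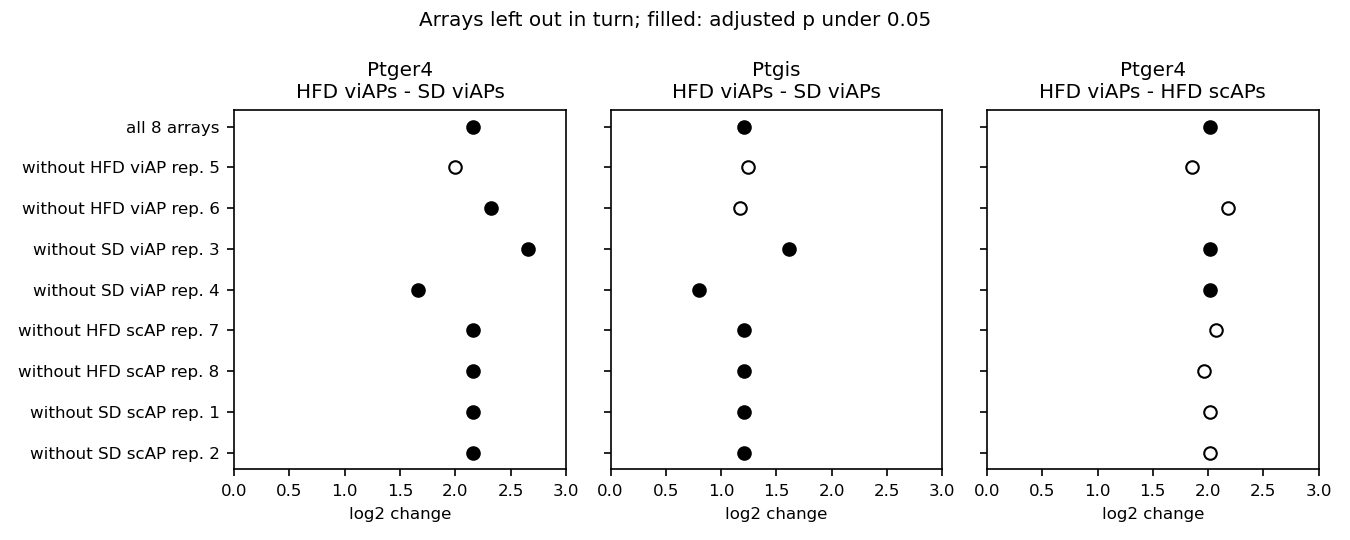
Log2 change (horizontal axes) of Ptger4 and Ptgis in 3 contrasts with all 8 arrays and with each array left out in turn (rows). Filled points passed a limma adjusted p of 0.05. The Ptger4 change between diets in viAPs stays between 1.66 and 2.66, and with an array left out the call between depots after the HFD is kept only where that array is an SD viAP array.

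Set side by side, the group means gave different orders for the members. Ptger4 averaged 8.93 in HFD viAPs, 6.77 in SD viAPs, 6.91 in HFD scAPs and 6.34 in SD scAPs. HFD viAPs were highest, and SD viAPs overlapped both scAP groups. Ptgis averaged 10.004 in HFD viAPs, 8.80 in SD viAPs, 8.78 in HFD scAPs and 8.64 in SD scAPs, and these last 3 groups overlapped. Hpgd averaged 10.18 in HFD viAPs, 9.73 in SD viAPs, 9.61 in HFD scAPs and 9.46 in SD scAPs, again with HFD viAPs highest and overlap among the rest. Ptgs2 averaged 12.43 in HFD viAPs, 12.10 in SD viAPs, 12.39 in HFD scAPs and 12.72 in SD scAPs. SD scAPs were thus highest and SD viAPs lowest for Ptgs2, and only the HFD groups overlapped. Ptger3 averaged 5.69 in HFD viAPs, 6.10 in SD viAPs, 6.96 in HFD scAPs and 6.44 in SD scAPs, so that HFD viAPs were lowest and HFD scAPs highest.

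The genes with the most similar pattern were sought among the 2884 or 2885 other named genes of the main test, by Pearson correlation of log2 levels over the 8 arrays, as a description. For Ptger4 these were Emilin1 (r = 0.99), Crip2 (r = 0.99) and Cux1 (r = 0.99). For Ptgis they were Gpam, Col4a5 and Ttyh2 (r = 0.99 each), and for Hpgd Capn1, Fxyd5 and Cdk8 (r = 0.99 each). The closest to Ptgs2 were Prdx2 (r = 0.95), Osgep (r = 0.95) and Abca1 (r = 0.93). The best match of Ptges was looser, with Sucla2 at r = 0.87, Carhsp1 at 0.85 and Ndufa9 at 0.85. All points share the same 4 groups, arrays and normalization, and each match is the best of a large number of genes.

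Beyond the members, 27 of 29 other genes of the prostanoid pathway were measured. In viAPs 3 of them rose after the HFD, 0 fell and 24 did not pass, with a median change of -0.13. The main test held 8 of the 27, and 3 of these 8 were called, beside 64.8% of all probe sets in it, while 0 of the 19 outside it were called, beside 4.84% of all probe sets with 1 symbol. Pla2g4a, the cytosolic phospholipase that frees arachidonic acid, read 8.41 and 8.17 in HFD viAPs, against 7.75 and 7.29 in SD viAPs, and rose by 0.77 (standard error 0.26, limma adjusted p = 0.0369). Its call was lost without SD viAP replicate 4 (0.54, adjusted p = 0.183). For Pla2g4a both HFD viAP arrays lay above both SD viAP arrays, beside 28.9% of all probe sets. Ptgfrn, a membrane protein that binds the prostaglandin F2-alpha receptor and lowers its ligand binding, read 10.02 and 9.90 in HFD viAPs, against 9.06 and 8.81 in SD viAPs, and rose by 1.03 (standard error 0.17, limma adjusted p = 0.00548). The groups were well apart, while Ptgfr itself had a change of -0.39 that was not called. Ptges3 also rose. Without HFD viAP replicate 5, 0 of the 27 passed, with an adjusted p of 0.0501 for Ptges3 and 0.0547 for Ptgfrn.

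Ptges3, the p23 co-chaperone of HSP90 that also has prostaglandin E2 synthase activity, read 10.25 and 10.12 in HFD viAPs, against 9.09 and 8.99 in SD viAPs. In scAPs it read 9.99 and 10.07 after the HFD, against 9.60 and 9.38 on SD. It rose by 1.15 in viAPs (standard error 0.13, limma adjusted p = 0.0035) and by 0.54 in scAPs (limma adjusted p = 0.0279). It was the only other pathway gene called in scAPs, and 26 did not pass there. It was 1 of the 8 in the main test, beside 30.4% of the probe sets in it. The 19 outside stood beside 0.00459% called over all probe sets with 1 symbol. The probe sets of Ptges3 disagreed. Besides the one used, probe set 10539649 had 1.08 in viAPs (limma adjusted p = 0.00543), but probe set 10367100 had 0.21 (limma adjusted p = 0.539). In scAPs the first of these had 0.57 and the second -0.088. The scAP call was lost without any 1 of the HFD arrays or SD scAP replicate 2.

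The other terminal synthases and receptors were not called in any comparison. Ptgds and Hpgds make prostaglandin D2, Tbxas1 makes thromboxane, Ptges2 makes prostaglandin E2 and Prxl2b makes prostaglandin F2-alpha, and all of them were at or below 7 on every array. Their changes in viAPs were -0.10, -0.28, -0.26, -0.27 and -0.69, and that of Prxl2b came closest to the threshold (limma adjusted p = 0.0671). The receptors Ptgdr and Ptgdr2 of prostaglandin D2 and Tbxa2r of thromboxane were at or below 7 on every array too. Ptgir, the prostacyclin receptor and thus the receptor of the product of Ptgis, read 7.67 and 7.37 in HFD viAPs, against 7.22 and 7.30 in SD viAPs, and 7.49 and 7.04 in HFD scAPs, against 6.39 and 6.94 in SD scAPs. HFD arrays lay above SD arrays in both depots, with changes of 0.25 (limma adjusted p = 0.354) and 0.60 (limma adjusted p = 0.0948), neither of which was called. Taken singly, such separations were found for 28.9% of all probe sets in viAPs and 21.7% in scAPs.

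**Figure D4:**
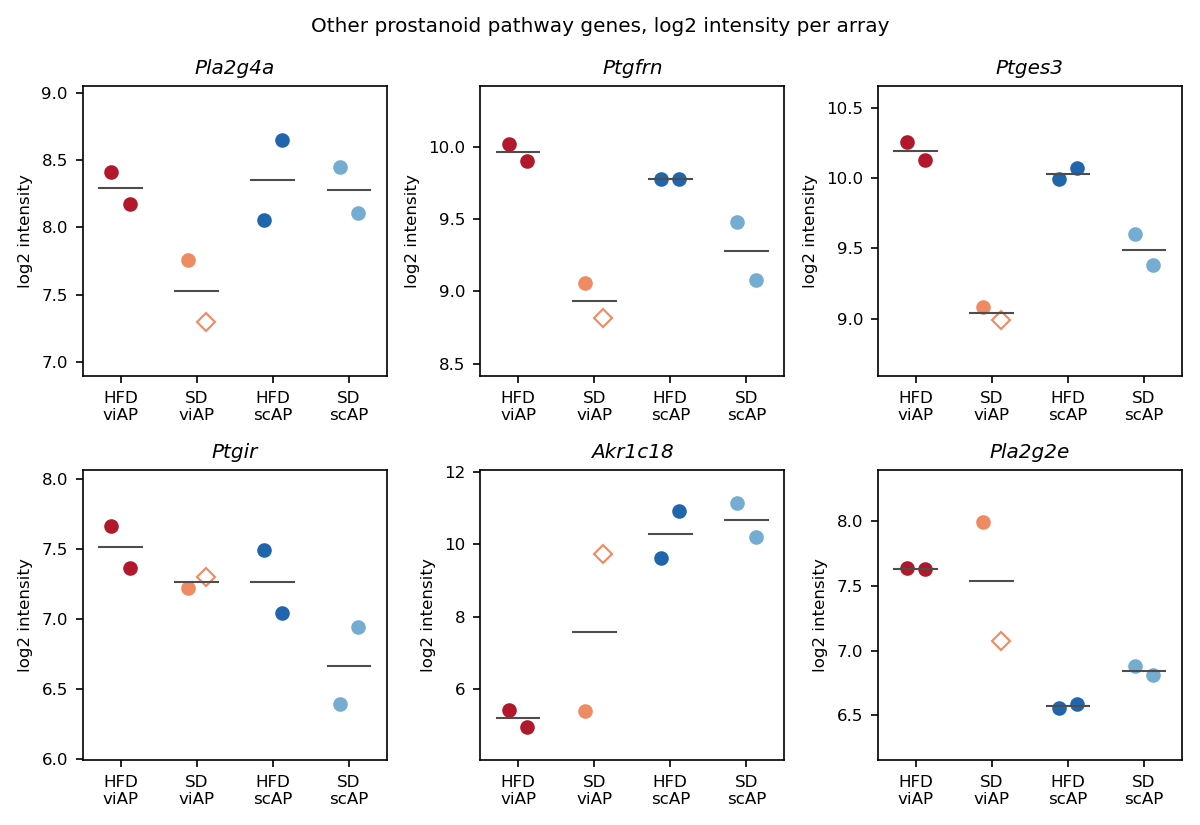
Log2 intensity (vertical axis, with its own scale for each gene) of 6 other prostanoid pathway genes on the 8 arrays. Each point is 1 array, lines are group means of 2 arrays, and the open diamond is SD viAP replicate 4. Pla2g4a, Ptgfrn and Ptges3 are lowest on the SD viAP arrays, and Akr1c18 is at 9.73 on SD viAP replicate 4, near the scAP arrays and far above the other viAP arrays.

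A pair of pathway genes differed more between depots than between diets and were singled out after their values were seen. Akr1c18, a reductase that in mice converts progesterone and also has prostaglandin F synthase activity, read 5.43 and 4.95 in HFD viAPs, against 9.62 and 10.93 in HFD scAPs. It read 5.39 and 9.73 in SD viAPs, against 11.13 and 10.20 in SD scAPs. The 3 viAP arrays with visceral depot genes were low, and SD viAP replicate 4 was high. The depot differences were -5.08 after the HFD and -3.10 on SD, and the SD difference was -5.27 without SD viAP replicate 4. They are given as a description with no test, because the gene was picked for this pattern and passed the level filter only through the arrays where it was high.

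The secreted phospholipase Pla2g2e read 7.64 and 7.63 in HFD viAPs, against 6.55 and 6.58 in HFD scAPs, and 7.99 and 7.08 in SD viAPs, against 6.88 and 6.81 in SD scAPs. Every viAP array lay above every scAP array. Of all probe sets, 20.3% lay higher on both viAP arrays after the HFD and 16.9% on SD, and the share with both was not counted. The depot differences were 1.06 after the HFD and 0.69 on SD, and the SD difference was 1.15 without SD viAP replicate 4. Pla2g2e was also picked for this pattern and passed the level filter only through the 4 viAP arrays, so no test is given. Carriers, reductases and reductive catabolic enzymes (Slco2a1, Abcc4, Cbr1, Ptgr1, Ptgr2 and Zadh2) were measured and not called in any comparison.

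Ptger2 and Ptger4 signal through Gs and cAMP, Ptger3 through Gi and Ptger1 through Gq. Of 33 genes of this signalling, 30 were measured. Gnas, Prkaca and Rapgef4 had no probe set of their own symbol and are not analysed here. The main test held 11 of the 30, and every call in this list between diets came from these. In viAPs 5 rose and 1 fell, so that 6 of the 11 were called, beside 64.8% of the probe sets in that test. Gnai3, a Gi subunit, rose by 1.21 (limma adjusted p = 0.00439), and Pde3a, a phosphodiesterase that degrades cAMP, by 0.83 (adjusted p = 0.00593). Prkar2b, a regulatory subunit of protein kinase A, fell by 0.80. Prkar2b entered the main test only through the 4 arrays where it exceeded 7, none of them an HFD viAP array. Its call, 1 of the 6, is therefore no support for the fall, and its p is not given. Prkar2b read 7.06 on SD viAP replicate 4, against 6.29 on SD viAP replicate 3. With the first of these left out its change was -0.42 and no longer called. Gnaq, a Gq subunit, also lost its call then (adjusted p = 0.0708) and Adcy3 gained one (adjusted p = 0.044), so that 5 rose and 0 fell. In scAPs 5 rose and 0 fell, again out of 11, beside 30.4% of the probe sets in the main test. Adcy3 and Adcy6, adenylyl cyclases that make cAMP, rose by 0.81 (limma adjusted p = 0.0182) and 0.60 (adjusted p = 0.0185), and Gna11, a Gq family subunit, by 0.75 (adjusted p = 0.0142). The median change of the 30 was 0.28 in viAPs and 0.19 in scAPs, against 0.63 and 0.40 over the probe sets of the main test and -0.060 and -0.0044 over all genes. Genes that make cAMP and genes that degrade it were both among those that rose.

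Of 12 genes known as targets of CREB, the transcription factor that cAMP activates, 11 were measured, 1 of which (Crem) is also in the signalling list. In viAPs Has2, a hyaluronan synthase, rose by 0.84 (limma adjusted p = 0.0301) and Sik1, a kinase that limits CREB signalling, by 0.60 (limma adjusted p = 0.0396), and the other 9 did not pass. The main test held 7 of the 11, so that 2 of 7 were called, beside 64.8% of its probe sets. With SD viAP replicate 4 left out the changes were 0.61 for Has2 (limma adjusted p = 0.153) and 0.33 for Sik1 (limma adjusted p = 0.173), and 0 of the 11 were called, beside 44.1%. In scAPs 0 of the 11 were called by limma, beside 30.4% of the probe sets in the main test. An unadjusted p under 0.05 in limma was found there for 2971 of the 19938 genes measured and for 0 of the 11. The median change in viAPs was 0.60 with all arrays and 0.11 without SD viAP replicate 4, against 0.63 and 0.58 over the probe sets of the main test. In scAPs it was 0.064. The scAP changes of Nr4a2 and Nr4a3, nuclear receptors induced by cAMP, were -0.38 and -0.56. These were called only without SD viAP replicate 4 or another array, although that array enters the scAP comparison only through the shared spread. With all arrays 1.3% of the probe sets in the main test were called lower in scAPs, and the share called lower without it was not counted. Gnaq, Nr4a2 and Nr4a3 were named after their values were seen. Of 14 genes of the leukotriene and lipoxygenase branch, which uses the same arachidonic acid, 13 were measured and 1 was above 7 on enough arrays. None of the 13 was called by limma in any of the 5 contrasts. An unadjusted p under 0.05 in limma was found for 3 in viAPs and 0 in scAPs, beside 5240 and 2971 of the 19938 genes measured. All 13 lay outside the main test. Over all probe sets with 1 symbol, 4.84% were called in viAPs and 0.00459% in scAPs.

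Markers of other cells were read beside the viAP diet changes. Of all probe sets with 1 symbol, 28.9% lay higher and 31.2% lower on both HFD viAP arrays than on both SD viAP arrays. The pericyte and smooth muscle list summed to 1424 and 1088 in HFD viAPs, against 994 and 718 in SD viAPs, with 4 of 9 genes higher and 1 lower on both HFD arrays and 5 of the 9 at or below 7 on all arrays. The macrophage and leukocyte list summed to 568 and 561 in HFD viAPs, against 735 and 658 in SD viAPs, with 8 of 15 lower on both HFD arrays. The sums of the endothelial list, 1939 and 1787 in HFD viAPs, against 1742 and 2013 in SD viAPs, overlapped. Of its 14 genes, however, 2 lay higher and 8 lower on both HFD arrays. Mesothelial markers summed to 994 and 1172 in HFD viAPs, against 1192 and 656 in SD viAPs, with 1 of 12 higher and 3 lower on both HFD arrays. Mast cell markers were at or below 7 on all arrays. The mature adipocyte list summed to 531 and 543 in HFD viAPs, against 592 and 653 in SD viAPs. Of its 7 genes, 6 were at or below 7 on all arrays, and 1 lay higher and 3 lower on both HFD arrays. Retn of this list was called lower (-0.95, limma adjusted p = 0.0324), beside 0.532% of all probe sets with 1 symbol. This call was lost without SD viAP replicate 4, where the list median moved from -0.41 to -0.22. The precursor list itself summed to 28475 and 27521 in HFD viAPs, against 23644 and 25642 in SD viAPs. Their part in the changes of Ptger4 and Ptgis was not tested.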

How the data were processed

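RNA of 8 pools of adipose precursors was hybridized to 1-colour arrays. The authors deposited linear intensities, rounded to whole numbers after quantile normalization and RMA summaries, for 35556 probe sets. For this step Affymetrix Expression Console 1.1 with RMA is named by the submitters' processing notes and an R package by the methods, and the return from the log scale is not given in the sources used here. Deposited intensities were converted to log2 without further scaling. The annotation gave 1 symbol to 21789 probe sets, several to 1621 and none to 12146, and only the first kind was used.

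Group means were estimated over all 8 arrays by lmFit and eBayes of limma 3.58.1 (R 4.3.3). P-values were adjusted by Benjamini-Hochberg over the 3076 probe sets that passed the methods' filter (level and variability), or, for a gene outside it, over all 21789. A call is an adjusted p under 0.05 with no minimum fold. The procedure was tested on simulated data. Groups came from the sample labels, and array numbers name the replicates. Marker sums add linear intensities. Promoters came from a RefSeq table (GRCm38.p6).

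Named were all members, pathway genes called in any comparison, all receptors and terminal synthases, at most 3 called genes of other lists, and the 3 best correlated genes of each member above the level filter. Members and lists were chosen with earlier results of these data known.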

Additional observations from a re-analysis of the deposited data

Results flagged for a closer look

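For Ptgs2, the inducible cyclooxygenase, the HFD arrays lay on opposite sides of the SD arrays in the depots. Taken singly, such separations were common, found for 28.9% of all probe sets (higher in viAPs) and 18.8% (lower in scAPs). The share with both was not counted. Ptgs2 was higher on both HFD viAP arrays (12.54 and 12.32) than on both SD viAP arrays (12.06 and 12.13), and lower on both HFD scAP arrays (12.34 and 12.44) than on both SD scAP arrays (12.88 and 12.57). The change in viAPs minus the change in scAPs was 0.67 on the log2 scale (standard error 0.21), and its test did not pass (limma adjusted p = 0.804). With each array left out in turn the difference stayed between 0.52 and 0.82, with an adjusted p of 0.385 to 1.0.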

How the results depend on the processing

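The 2 calls among the members in viAPs between diets became 1 with only the arrays compared in the model and 1 with no filter, and ranged from 0 to 3 with each array left out. In scAPs and for the difference of the diet changes the count of 0 ranged from 0 to 1 with arrays left out, and so did that between depots on SD. Between depots after the HFD the count of 1 became 3 with only the arrays compared, and 0 after a second quantile normalization, with no filter or with only the level part of the filter, and ranged from 0 to 3 with arrays left out. Of the other pathway genes, the 3 calls in viAPs ranged from 0 to 5 with arrays left out. Their 1 call in scAPs became 2 with log2 of the value plus 16, 3 with each array centred on its median, and 0 with only the arrays compared, with a second quantile normalization, with no filter or with only the level part, and ranged from 0 to 2 with arrays left out. Leaving out an array leaves 1 array in its group, which is then assumed to vary like the other groups. Other causes of these shifts were not tested.

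Directions reversed only for changes that were not called. A second quantile normalization gave -0.28 for Ptges between diets in viAPs and -0.021 for its difference of diet changes, -0.070 for Ptgis, -0.082 for Hpgd and 0.014 for Ptger2 between diets in scAPs, and 0.012 for Ptger1 between diets in viAPs. Centring each array on its median gave 0.072 for Ptges and 0.0013 for Ptger2 between diets in scAPs, and for Ptger1 0.036 between diets in viAPs and 0.0013 between depots after the HFD.

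With each array left out in turn, directions also reversed as follows. Between diets in viAPs the change ran from -0.41 to 0.58 for Ptges, from -0.26 to 0.046 for Ptger1, from -0.066 to 0.13 for Ptger2 and from -0.87 to 0.043 for Ptger3. Between diets in scAPs it ran from -0.18 to 0.13 for Ptges, from -0.078 to 0.37 for Ptgis and from -0.18 to 0.21 for Ptger1. The difference of diet changes ran from -0.38 to 0.61 for Ptges and from -0.32 to 0.078 for Ptger1. Between depots after the HFD the change ran from -0.067 to 0.15 for Ptgs2, from -0.25 to 0.067 for Ptges and from -0.083 to 0.057 for Ptger1. Between depots on SD it ran from -0.69 to 0.29 for Ptges, from -0.25 to 0.57 for Ptgis, from -0.092 to 0.30 for Ptger1, from -0.13 to 0.066 for Ptger2, from -0.80 to 0.11 for Ptger3, from -0.069 to 0.93 for Ptger4 and from -0.097 to 0.35 for Ptgfr.

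Of the remaining alternatives for single genes, 698 kept direction and side of the threshold, 32 lost a call and 20 gained one. The next probe set of a member could not be tried, since each member had 1. No paired analysis was possible because each array number occurs once and the groups share none.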
